A study of Mus musculus with 8 samples.

Results

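Genes of the lipid droplet coat and of lipolysis were followed in the livers of newborn mice that lack Mfp2, the peroxisomal multifunctional protein 2, encoded by Hsd17b4. The group holds 10 genes, taken by symbol from a list, with every probe set that the array annotation pairs with exactly 1 of those symbols. All 10 were found, on 17 of the 45037 probe sets and among 18193 genes. The coat side holds 6 genes on 7 probe sets (Plin2, Plin3, Plin4, Plin5, Cideb, Cidec), and the lipolysis side holds 4 genes on 10 probe sets (Pnpla2, Abhd5, G0s2, Mgll). Total liver RNA of 4 Mfp2 -/- mice and 4 wild type (WT) mice, all aged 2 days, was hybridised to Affymetrix expression arrays, with 1 array per mouse. The labels give neither the strain, the sex, the feeding state nor how the allele was made, and the knockout is not described as limited to one cell type.

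Fat is stored in hepatocytes as triglyceride in lipid droplets, whose surface carries perilipins (Plin genes) and CIDE proteins. Perilipins shield the droplet and regulate the access of lipases, and CIDE proteins act in droplet fusion and in the loading of lipoproteins with lipid. Lipolysis starts with adipose triglyceride lipase (Pnpla2), which is activated by Abhd5 and inhibited by G0s2, and ends with the monoglyceride lipase Mgll. In mouse liver several of these genes, Plin2 among them, are known targets of the fatty acid receptor PPARalpha.

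Values are log2 RMA values as the authors deposited them. Differences are knockout minus wild type on that scale, with the standard error (SE) of a limma fit, 95% confidence intervals, and p-values adjusted over all 45037 probe sets. Where a gene had several probe sets, the one with the highest mean over the 8 arrays stood for it. The array medians lay between 3.68 and 3.73, and a probe set below them is not shown to be above background. The targeted gene Hsd17b4 averaged 3.84 ± 0.45 in knockout and 8.50 ± 0.40 in wild type livers (SD, n = 4 each), so each array matched its label. Xist was high and Y-linked transcripts low in knockout 1, knockout 2 and wild type 3. Sex is therefore unbalanced, and in replicates 1 and 2 alone genotype and sex cannot be told apart. Erythroid markers had lower means in the knockout in 6 of the 6 found among 8 listed, with per-liver means of 8.49 to 9.30 in knockout and 9.61 to 9.81 in wild type livers, although 0 passed the threshold. The means of 7 hepatocyte markers ran from 10.74 to 11.12 in knockout and from 10.58 to 10.85 in wild type livers. In whole liver RNA, fewer cells of a type and less RNA per cell cannot be told apart, and the part of either marker list in the results was not tested.

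In the knockout, all 6 coat genes had higher means, and 3 of the 4 lipolysis genes had lower means. Among all 18193 genes, 9694 had higher means. Of the coat genes, Plin4 lay below the array median on 8 arrays and Cidec on 7. None of the 10 member differences passed the threshold of 0.05 in limma. The count was 0 higher, where 0.308% of all genes were called higher, and 0 lower, where 0.841% of all genes were called lower. Over all probe sets 0.762% were called. At an unadjusted p under 0.05 there were 4 of the 10 genes (Plin2, Plin4, G0s2 and Mgll), against 14.6% of all genes. In G0s2 and Mgll, 2 of the 10, the knockout and wild type livers did not overlap, as in 8.61% of all genes. A missed threshold does not show that levels were alike.

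The median difference was 0.34 over the coat genes and -0.43 over the lipolysis genes, beside 0.01 over all genes. The coat differences ran from 0.22 to 0.66, and those of lipolysis from -1.08 to 0.67. The per-liver mean of the 6 coat values was 6.42, 6.53, 7.08 and 6.57 in knockout livers 1 to 4, and 6.11, 6.49, 6.15 and 6.35 in wild type livers 1 to 4. These overlapped, since knockout 1 lay below wild type 2. The per-liver mean of the 4 lipolysis values was 7.41, 7.45, 7.28 and 7.26 in knockout livers, and 7.64, 7.89, 7.50 and 7.62 in wild type livers. Every knockout liver lay below every wild type liver there, although Pnpla2 ran the other way from the other 3 genes. Taken singly, Pnpla2 and Abhd5 overlapped between the groups. G0s2 has the largest of these differences, -1.08, and as an inhibitor of Pnpla2 it counts in this mean just like a lipase. The mean is therefore no measure of lipolysis. Because the members were chosen with results of these arrays known, no p is given for either class.

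**Figure D1:**
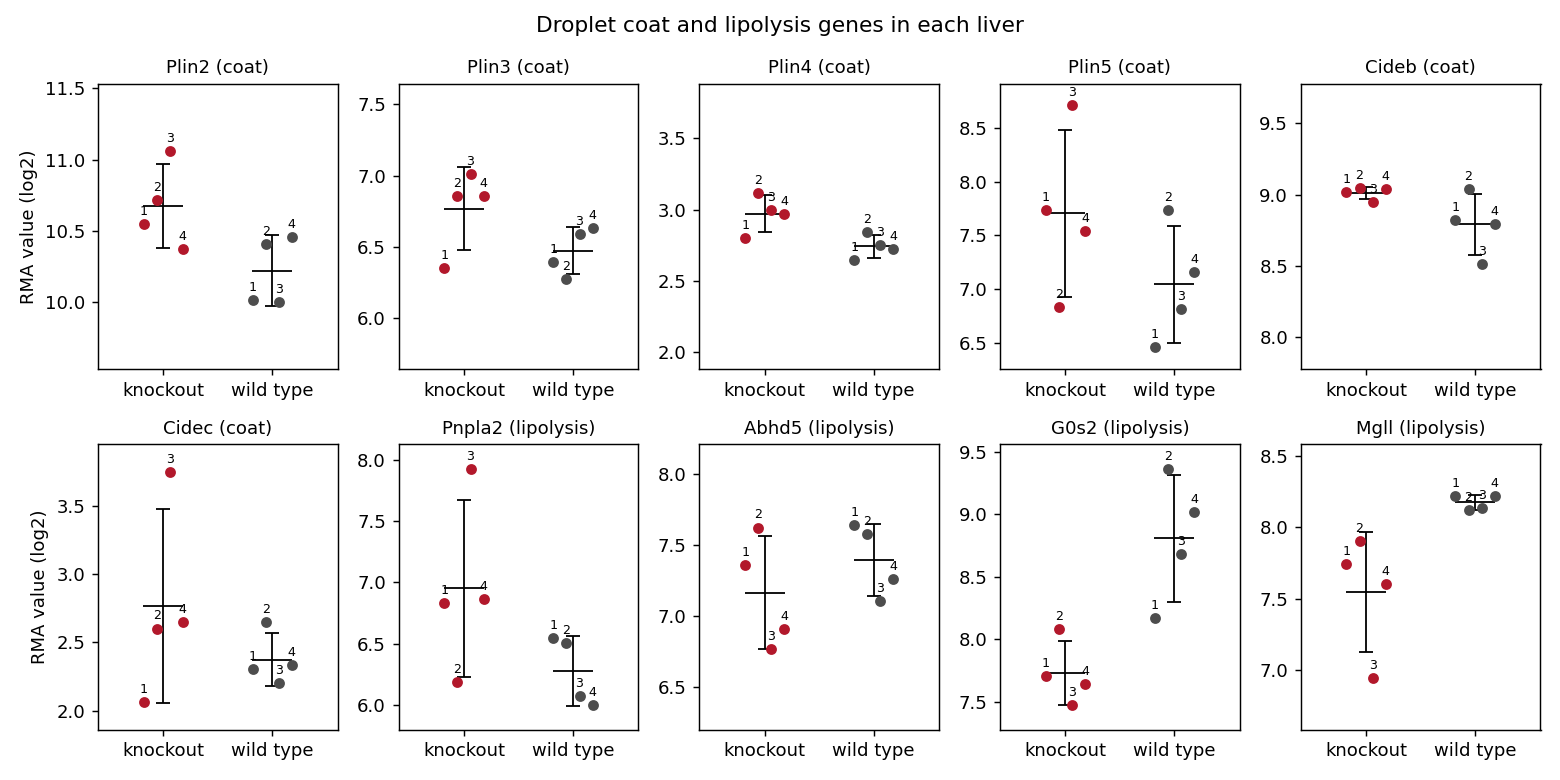
RMA value (log2) of each of the 10 genes, knockout left and wild type right in each panel, 1 numbered point per liver, with the mean and SD as bars (n = 4 each). The vertical axes differ between panels. G0s2 and Mgll are the 2 genes whose groups do not overlap, both lower in the knockout, while Plin2, Plin3, Plin5, Cidec and Pnpla2 are highest in knockout 3.

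The promoter windows of the 4 genes below are shown because G0s2 and Mgll had the lowest p-values of the group and Plin2 and Plin5 the largest coat differences. Each is the RefSeq window of GRCm38.p6, from 250 bases before to 50 bases after the first start listed, printed 5′ to 3′ along the gene. G0s2 lies at chr1:193273139-193273438 on the minus strand, Mgll at chr6:88724162-88724461 on the plus strand, Plin2 at chr4:86670010-86670309 on the minus strand and Plin5 at chr17:56117499-56117798 on the minus strand. Capitals mark the nuclear receptor hexamer AGGTCA or its reverse complement TGACCT, and the E-box CACGTG, both searched on both strands.
G0s2: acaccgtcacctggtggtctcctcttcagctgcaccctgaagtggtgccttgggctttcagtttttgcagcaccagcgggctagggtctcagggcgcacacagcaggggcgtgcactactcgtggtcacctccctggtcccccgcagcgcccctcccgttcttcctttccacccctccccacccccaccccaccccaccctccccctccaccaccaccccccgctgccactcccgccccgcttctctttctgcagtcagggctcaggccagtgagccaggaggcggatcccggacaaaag
Mgll: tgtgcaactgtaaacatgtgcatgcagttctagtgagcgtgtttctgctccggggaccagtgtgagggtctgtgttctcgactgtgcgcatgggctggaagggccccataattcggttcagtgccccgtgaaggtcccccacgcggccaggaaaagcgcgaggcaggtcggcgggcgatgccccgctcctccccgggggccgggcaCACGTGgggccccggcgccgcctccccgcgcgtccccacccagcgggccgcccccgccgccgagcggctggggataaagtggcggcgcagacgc
Plin2: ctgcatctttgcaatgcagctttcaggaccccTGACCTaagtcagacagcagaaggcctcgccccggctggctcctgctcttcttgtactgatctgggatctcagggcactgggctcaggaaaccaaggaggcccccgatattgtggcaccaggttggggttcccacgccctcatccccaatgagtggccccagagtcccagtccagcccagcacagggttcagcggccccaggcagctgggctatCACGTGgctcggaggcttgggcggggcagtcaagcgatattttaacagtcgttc
Plin5: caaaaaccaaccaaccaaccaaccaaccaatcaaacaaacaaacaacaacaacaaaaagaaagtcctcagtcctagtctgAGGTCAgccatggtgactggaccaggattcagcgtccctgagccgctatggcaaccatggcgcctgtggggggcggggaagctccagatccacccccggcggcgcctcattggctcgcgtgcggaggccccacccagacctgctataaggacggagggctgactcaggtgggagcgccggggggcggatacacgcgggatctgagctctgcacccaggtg

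The hexamer AGGTCA stood in 3 of the 10 windows, those of Plin2, Plin5 and Abhd5, against 16.0% of 27025 RefSeq windows of that length. The E-box was found in 2, those of Plin2 and Mgll, against 7.24% of all windows. The direct repeat that PPARalpha binds, taken as AGGTCANAGGTCA on either strand and overlapping the hexamer by its letters, was in 0 of the 10 and in 0.0444% of all windows. With so rare an exact match, 0 of the 10 says nothing on whether PPARalpha binds there. The G0s2 window held none of these letters. A match in a window this short is a description of sequence, and sites further away were not searched.

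Plin2, the main droplet coat protein of hepatocytes, stood at 10.548, 10.718, 11.061 and 10.375 in knockout livers 1 to 4, and at 10.012, 10.409, 10.002 and 10.459 in wild type livers 1 to 4. Knockouts 1, 2 and 3 lay above every wild type liver, and knockout 4 lay below wild type 2 and wild type 4. The difference was 0.46 ± 0.17 (SE), a 1.37-fold higher level, with an interval from 0.08 to 0.83 and a limma adjusted p of 0.306. It was 0.42 in replicates 1 and 2 alone and 0.49 in replicates 3 and 4 alone, and 0.33 without knockout 3.

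Plin5, the perilipin of oxidative tissues, which holds Abhd5 at the droplet and links droplets to mitochondria, had the largest SD of the 10 genes in both groups, 0.78 in knockout and 0.55 in wild type livers (n = 4 each). Its brighter probe set read 7.73, 6.83, 8.71 and 7.54 in knockout livers, and 6.46, 7.74, 6.82 and 7.16 in wild type livers. Wild type 2 lay just above knockout 1 and below knockout 3 alone, and knockout 2 lay among the wild type livers. The difference was 0.66 ± 0.38 (SE), with an interval from -0.18 to 1.50 and a limma adjusted p of 0.569. Another Plin5 probe set gave 0.75 ± 0.29 with an adjusted p of 0.345, with knockout 3 highest and wild type 1 lowest in both sets. Without knockout 3 the difference of the brighter set was 0.32. It was 0.18 in replicates 1 and 2 alone and 1.14 in replicates 3 and 4 alone.

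Plin3, a perilipin found both in the cytosol and on small droplets, ran from 6.35 to 7.01 in knockout and from 6.28 to 6.63 in wild type livers. Knockout 1 alone lay among the wild type values. The difference was 0.30 ± 0.15 (SE), with a limma adjusted p of 0.507. Plin4, known from the small droplets of adipocytes and muscle, ran from 2.80 to 3.12 in knockout and from 2.65 to 2.85 in wild type livers. All 8 values lay below the median of their arrays, so its difference of 0.23 ± 0.10 (adjusted p 0.390) is not shown to stand for expression. Plin4 and Plin5 are direct neighbours on chromosome 17, with no protein-coding gene between them in RefSeq.

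Cideb, the CIDE protein of hepatocytes, which acts in loading lipid onto very low density lipoproteins, had a narrow range in the knockout. It read 9.01, 9.05, 8.95 and 9.04 in knockout livers, and 8.82, 9.04, 8.51 and 8.79 in wild type livers. Wild type 2 lay within the knockout range and the other wild type livers below it. The difference was 0.22 ± 0.11 (SE), with an interval from -0.03 to 0.48 and a limma adjusted p of 0.518. It was 0.13 without wild type 3, 0.10 in replicates 1 and 2 alone and 0.34 in replicates 3 and 4 alone. Its probe set carries the suffix that the array maker uses for probes shared by several transcripts, as do the brighter sets of Plin5 and Mgll.

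Cidec, the CIDE protein of white fat that is known to appear in fatty liver, stood near background. It read 2.06, 2.60, 3.75 and 2.65 in knockout livers, and 2.31, 2.65, 2.21 and 2.34 in wild type livers. Only knockout 3 exceeded the median of its array, and the remaining 7 values lay below theirs. The difference of 0.39 ± 0.30 (SE), with a limma adjusted p of 0.692, was 0.06 without that liver, 0.63 without knockout 1, -0.15 in replicates 1 and 2 alone and 0.93 in replicates 3 and 4 alone. The mean of the 5 adipocyte markers found of 7 listed ran from 3.41 to 3.54 in knockout and from 3.51 to 3.66 in wild type livers. Singly, 3 of the 5 had higher means in the knockout (Adipoq, Lep and Retn) and 2 had lower means (Fabp4 and Cidea). Of these markers, Adipoq, Lep and Cidea lay below the array median in every liver. Fabp4, also known from endothelium and macrophages, read from 6.12 to 6.91 in knockout and from 7.31 to 7.93 in wild type livers (difference -0.96 ± 0.19 (SE), adjusted p 0.0592).

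G0s2, the inhibitor of adipose triglyceride lipase, had the largest difference of the 10 genes. It stood at 7.71, 8.09, 7.48 and 7.64 in knockout livers 1 to 4, and at 8.17, 9.36, 8.68 and 9.02 in wild type livers 1 to 4. Every knockout liver lay below every wild type liver, with a gap of less than 0.1 between knockout 2 and wild type 1. The knockout minus wild type difference of -1.08 ± 0.23 (SE) is a 2.11-fold lower level and had an interval from -1.60 to -0.56. Its limma adjusted p was 0.0757, and the unadjusted p was 0.00100. An exact permutation test of this gene alone gave p = 0.0286, two-sided, the smallest that 4 against 4 livers allow and the same for every gene whose groups do not overlap. The difference was -0.87 in replicates 1 and 2 alone and -1.29 in replicates 3 and 4 alone, and with the Xist and Y-linked measure of sex as a covariate it was -1.12 (adjusted p 0.0819). It passed the threshold in 3 settings, with array weights (adjusted p 0.0237), in replicates 3 and 4 alone (0.0357) and without wild type 1 (0.0377), while the range over all settings tried was 0.0237 to 0.998.

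Mgll, which releases the last fatty acid from monoglycerides and also degrades the endocannabinoid 2-arachidonoylglycerol, was measured by 4 probe sets. The brightest read 7.74, 7.90, 6.94 and 7.60 in knockout livers, and 8.22, 8.12, 8.13 and 8.22 in wild type livers. The wild type livers lay within 0.1 of each other and above each knockout liver, and knockout 3 was the lowest. The knockout minus wild type difference of -0.63 ± 0.18 (SE) is a 1.54-fold lower level and had an interval from -1.03 to -0.22 and a limma adjusted p of 0.181. A further 2 sets of similar brightness gave -0.65 ± 0.23 and -0.64 ± 0.22, with adjusted p of 0.275 and 0.258. The last set, below the array median in all 8 livers, gave 0.00 ± 0.11. Without knockout 3 the brightest set differed by -0.43, and it differed by -0.35 in replicates 1 and 2 alone and by -0.90 in replicates 3 and 4 alone.

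**Figure D2:**
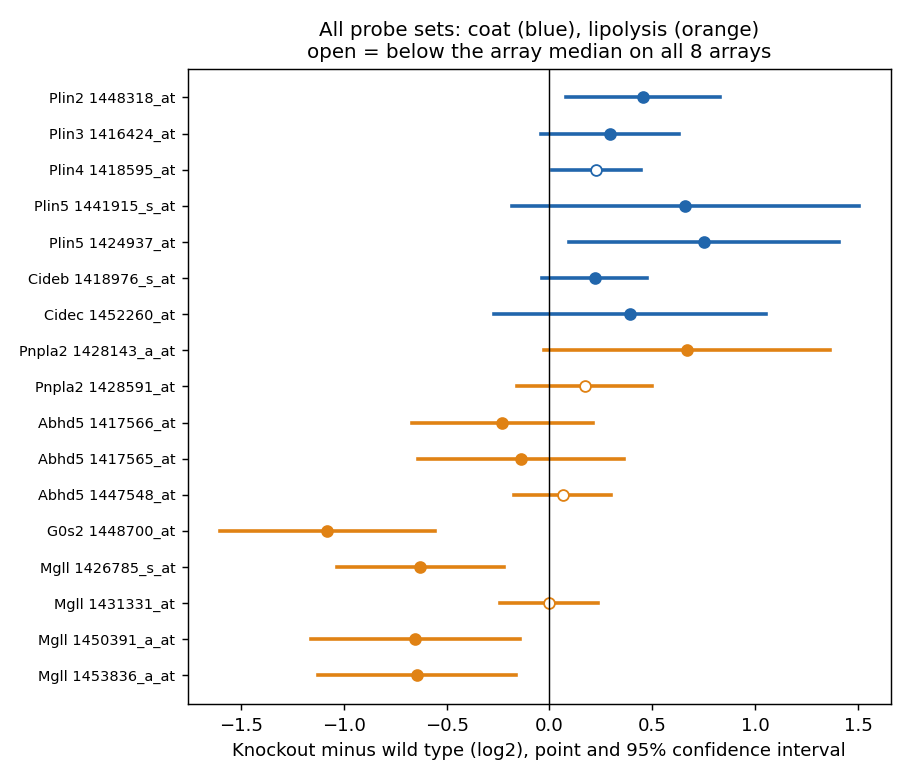
Difference of each of the 17 probe sets, knockout minus wild type (log2), as a point with its 95% confidence interval, coat genes in blue above and lipolysis genes in orange below. Open points lay below the array median on all 8 arrays. The 7 coat points lie between 0.22 and 0.75, and the 3 brighter Mgll sets lie between -0.65 and -0.63.

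Pnpla2, the lipase that takes the first fatty acid from triglyceride, ran opposite to its inhibitor in mean. It read 6.83, 6.19, 7.93 and 6.87 in knockout livers, and 6.55, 6.51, 6.07 and 6.0 in wild type livers. Knockouts 1, 3 and 4 lay above each wild type liver, and knockout 2 lay among them. The difference was 0.67 ± 0.31 (SE), with an interval from -0.02 to 1.37 and a limma adjusted p of 0.449. It rested on part of the livers, at 0.35 without knockout 3, -0.02 in replicates 1 and 2 alone and 1.36 in replicates 3 and 4 alone. Its other probe set lay below the array median in all 8 livers and differed by 0.17 ± 0.15.

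Abhd5, the activator of that lipase, ran from 6.77 to 7.62 in knockout and from 7.11 to 7.64 in wild type livers on its brightest probe set, with overlapping groups. The difference was -0.23 ± 0.20 (SE), with an interval from -0.67 to 0.21 and a limma adjusted p of 0.739. Another bright set gave -0.14 ± 0.22, and a dim one, below the array median throughout, gave 0.06 ± 0.11. The difference of the brightest set was -0.10 when knockout 3 was left out, -0.14 for knockout 4, -0.15 for wild type 1 and -0.38 for knockout 2, and it was -0.11 in replicates 1 and 2 alone and -0.34 in replicates 3 and 4 alone.

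Whether 2 genes changed unequally was tested on their log ratio within each liver, in 6 pairs, with an exact permutation test. The ratio compares changes and not levels, since probe sets differ in brightness. The change in G0s2 minus that in Pnpla2 was -1.75, with ratios of 0.88, 1.90, -0.45 and 0.77 in knockout livers and of 1.62, 2.85, 2.61 and 3.02 in wild type livers. Knockout 2 exceeded wild type 1, so the groups overlapped, and the exact two-sided p was 0.0571 (0.257 adjusted over the 6 pairs). For Mgll against Pnpla2 the change was -1.30 (exact p = 0.0857, 0.257 adjusted) and for Abhd5 against Pnpla2 it was -0.90 (exact p = 0.143, 0.286 adjusted). Without knockout 3 these 3 changes were -1.34, -0.77 and -0.44. Within replicates 1 and 2 they were -0.85, -0.33 and -0.10, and within replicates 3 and 4 they were -2.65, -2.26 and -1.70. The pairs Plin2 and Pnpla2, Plin2 and Plin5, and Cidec and Cideb differed by -0.22, -0.21 and 0.17, with exact p of 0.543, 0.60 and 0.80. All 3 changed sign between the replicate sets, at 0.44, 0.24 and -0.25 in replicates 1 and 2 and at -0.87, -0.65 and 0.59 in replicates 3 and 4. Without knockout 3 they were -0.02, 0.002 and -0.18, and the last pair rests on Cidec, which lay below the array median in 7 of 8 livers. After adjustment none of the 6 passed, the lowest adjusted p being 0.257. The members were chosen with results of these arrays known, which an adjustment over 6 pairs does not correct.

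Among the knockout livers, knockout 3 lay furthest from the wild type mean, in the direction of the group difference, in 8 of the 10 genes. The exceptions were Plin4 and Cideb, where knockout 2 lay furthest. Over all 18193 genes, knockout 3 lay furthest in that sense in 30.6%. Counting only the 12 probe sets that lay above the array median on every array, knockout 3 lay furthest in 11. Plin5, Abhd5 and Mgll each have several sets among those 12, so these are in part repeat measures of the same gene. The share over all probe sets of that brightness was not counted. Against the wild type mean, that liver was 1.67 higher in Plin5, 1.64 higher in Pnpla2 and 1.38 higher in Cidec, and it stood at -1.33 in G0s2 and -1.23 in Mgll. Over the 4 knockout livers G0s2 had a narrower spread than those other genes, from -1.33 to -0.72. Without knockout 3 the coat median was 0.23 and the lipolysis median -0.26.

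Knockout 3 also had the highest or lowest mean of the 8 livers in 3 of the 5 cell type marker lists. Its mean over the 7 hepatocyte markers, 11.12, was the highest of the 8 livers, against 10.74, 10.75 and 10.91 in knockouts 1, 2 and 4. Of these markers 3 of 7 were highest in that liver, namely Tat at 11.03, Cps1 at 12.28 and Hnf4a at 10.33, while Ttr was lowest there at 12.68. Its mean over the 6 stellate cell markers, 6.37, was the lowest of the 8 livers, and 4 of the 6 were lowest there. Knockouts 1, 2 and 4 had stellate means of 6.73, 7.36 and 6.88, and the wild type livers had 6.88 to 7.07. Its mean over the 6 macrophage markers, 7.17, was the lowest too, and 3 of the 6 were lowest there. Knockouts 1, 2 and 4 had macrophage means of 7.58, 8.13 and 7.53, and the wild type livers had 7.20 to 7.85, so wild type 4 came close. Between the genotypes 0 markers of any of these 3 lists passed the threshold. The part of these marker levels in the values of knockout 3 was not tested.

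**Figure D3:**
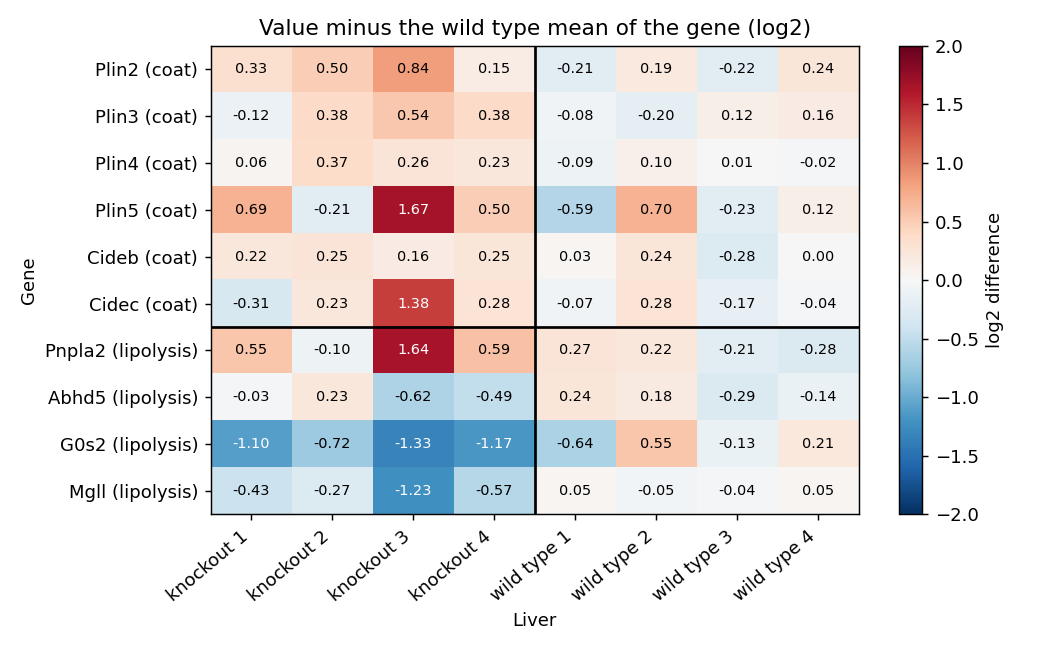
Value of each gene in each liver minus its wild type mean (log2), knockout livers left and wild type livers right, coat genes above the line and lipolysis genes below it. Knockout 3 holds the extreme cells, from 1.67 in Plin5 to -1.33 in G0s2, and G0s2 and Mgll are below their wild type mean in all 4 knockout livers.

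G0s2, which had the lowest p, was also compared with every other gene by the Pearson correlation of values centred within each genotype, over the 8 livers. The 5 named genes most like it were Nisch (r = 0.988), Lpp (0.977), Ptprg (0.973), Adam9 (0.970) and Pcnp (0.967). Their own differences between the genotypes ran from -0.15 to 0.31, with none called in limma. In all, 70 of 18192 genes had an r above 0.9, and the points share arrays and their normalization. Among the group itself, the highest was Plin4 at 0.61 and the lowest Pnpla2 at -0.44. Plin4 lay below the array median in all 8 livers, so its r is not shown to stand for expression.

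A wider list of 24 genes of droplet biogenesis, triglyceride synthesis and other lipases held 23 with a probe set, and Plin1 was not found under that symbol. Of these, 2 were called higher and 0 lower, against 0.308% and 0.841% of all genes, and the median difference was 0.07. Hsd17b11, a short-chain dehydrogenase that resides on droplets, rose by 1.13 ± 0.18 (SE), a 2.19-fold change, with a limma adjusted p of 0.0375. It read 10.94, 11.38, 10.88 and 10.87 in knockout livers, and 9.92, 10.32, 9.45 and 9.85 in wild type livers, without overlap. Its second bright probe set differed by 1.10 ± 0.29, with an adjusted p of 0.144, and a dim set by 0.13 ± 0.11. The call held without wild type 2, with a difference of 1.28 (adjusted p 0.0328), and was lost without any of the other 7 livers, where the adjusted p ran from 0.0539 to 0.129.

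Acsl3, which activates fatty acids at newly forming droplets, rose by 0.65 ± 0.12 (SE), with a limma adjusted p of 0.0499. It read 6.41, 6.35, 6.22 and 5.97 in knockout livers, and 5.41, 5.52, 5.69 and 5.74 in wild type livers, without overlap. Its call was lost without any single liver, at adjusted p between 0.0765 and 0.152. The difference was 0.92 in replicates 1 and 2 alone and 0.38 in replicates 3 and 4 alone. The Acsl3 set called here carries the suffix for probes shared by several transcripts. The 2 dimmer probe sets, without that suffix, gave 0.28 ± 0.15 and 0.01 ± 0.12. They lay below the array median on 5 and on all 8 arrays, so neither is shown to be above background throughout. Lpin2, a phosphatidate phosphatase of triglyceride synthesis, did not overlap between the groups either, with 8.57 to 8.97 in knockout and 7.99 to 8.37 in wild type livers (difference 0.51 ± 0.13, limma adjusted p 0.114). Another 2 Lpin2 sets above the array median overlapped between the groups, at 0.52 ± 0.30 (adjusted p 0.568) and 0.56 ± 0.21 (0.311), and a dim set gave 0.01 ± 0.18. Gpam, the mitochondrial acyltransferase that starts glycerolipid synthesis, differed by 0.57 ± 0.21 (adjusted p 0.313). Its difference was 0.36 without knockout 3, 0.27 in replicates 1 and 2 alone and 0.86 in replicates 3 and 4 alone. The final enzymes of triglyceride synthesis, Dgat1 and Dgat2, differed by 0.03 ± 0.11 and 0.07 ± 0.12, with intervals from -0.22 to 0.28 and from -0.21 to 0.35. These 2 were picked for naming with their values known.

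**Figure D4:**
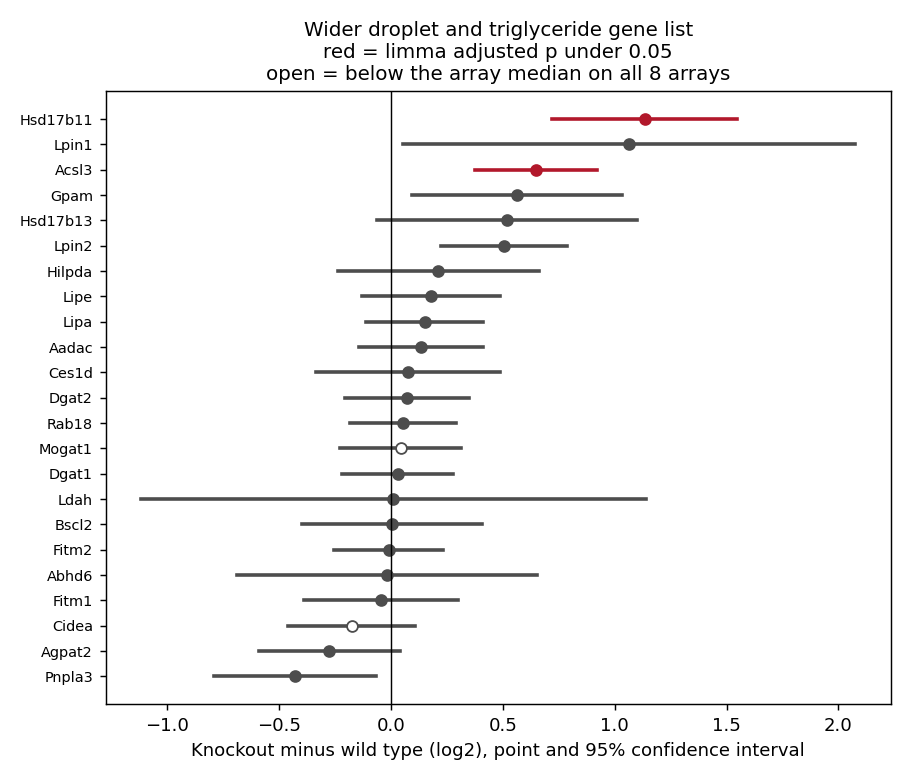
Difference of each of the 23 genes of the wider list, knockout minus wild type (log2), as a point with its 95% confidence interval, ordered by size. Red marks the 2 genes called in limma, Hsd17b11 at 1.13 and Acsl3 at 0.65, and open points lay below the array median on all 8 arrays.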

How the data were processed

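Total liver RNA of 8 mice was measured, 4 per genotype. Deposited were log2 values, processed by the authors with RMA (named in the submitters' processing notes). It corrects background, equalises the distribution of probe values between arrays and summarises probes, so a shift of total mRNA cannot be seen. No source used here gives its version. Arrays give no read depth, and their number limits the precision.

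From 45101 probe sets 64 controls were left out. The array annotation gives 34945 sets 1 gene symbol, 932 several, and does not list 9160, and 34741 of the first matched RefSeq by Entrez identifier. All probe sets were fitted in limma 3.58.1 under R 4.3.3 (lmFit, eBayes, two-sided tests, genotype as the only term) with Benjamini-Hochberg adjustment at 0.05. The script was tested on simulated data. The 10 members, the classes and the wider list were chosen with earlier results of these data known. Named are all members, called or lowest-p wider-list genes (4), Hsd17b4, and the 5 genes most like the lowest-p member. Cell type markers come from fixed lists, and those given singly, like Dgat1, Dgat2, Ldah, Pnpla3 and Lpin1, were picked with their values known. Both groups use replicate numbers that no label ties to litters, so the fit has no block. Exact permutation tests were used for gene pairs. Alternatives covered filtering, scaling, variance, weights, blocks, sex, probe set choice and left-out livers. Array sets were defined by replicate number, not by a label.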

Additional observations from a re-analysis of the deposited data

Results flagged for a closer look

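Of 54 sets of 4 values checked, 3 had a liver standing apart, its gap to the next value, as a share of the range, being above Dixon's 95% critical value. Chance gives about 1 in 20 such sets. Knockout 1 read 2.70 on the dimmer Pnpla2 probe set, against 2.44 to 2.46 in the other knockout livers, all below their array medians. Knockout 2 read 11.38 in Hsd17b11, against 10.87 to 10.94 in the other knockout livers. Knockout 3 read 9.42 in Gpam, against 8.57 to 8.65 in the other knockout livers. The cause of each was not tested.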

How the results depend on the processing

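The count of member genes called higher was 0 in each of the 19 alternatives, and that of genes called lower was 0 except for 1, G0s2, with array weights, in replicates 3 and 4 alone and without wild type 1 (0 to 1 over the left-out livers). The median over the 10 genes was 0.041 in replicates 1 and 2 alone. That of the coat genes was 0.20 there and 0.41 in replicates 3 and 4 alone, and 0.23 to 0.47 over left-out livers, and that of the lipolysis genes was -0.23 in replicates 1 and 2 alone, -0.62 in replicates 3 and 4 alone, -0.29 with the mean of all probe sets of a gene, and -0.56 to -0.26 over left-out livers. Pnpla2 at -0.019 and Cidec at -0.15 changed sign in replicates 1 and 2 alone, and the other 8 genes kept their sign in every alternative. The filter on dim probe sets removed Plin4 and Cidec. With the replicate block 9 genes of the whole table passed, against 209 without it, and 0 members were called. Each number holds a liver of each genotype, so that block cannot change a difference. The medians therefore had to stay at 0.34 for coat, -0.43 for lipolysis and 0.26 for all 10. Uncentred, knockout and wild type arrays correlated at 0.976 to 0.989. Pairing was looked at on the values of all genes centred within each genotype, so only on what remained after the group means. Of these centred correlations of same-numbered livers 2 of 4 were over 0.1, and 2 of 4 knockout livers correlated best with their own number. Knockouts 1 and 2 correlated best with wild types 2 and 1 (r = 0.11 and 0.16). These values do not settle whether the numbers pair the livers. The 209 became 137 with quantile normalization again, 545 with array weights, 325 with the sex measure, 3 in replicates 1 and 2 alone, and between 5 and 287 with a liver left out. Hsd17b11 was called in the block fit too (adjusted p 0.0474) and Acsl3 was not (0.119). The mean of all probe sets takes in a set below the array median on all 8 arrays for Hsd17b11, Acsl3, Pnpla2, Abhd5 and Mgll. The Hsd17b11 call was lost with the mean of all its probe sets (0.79, adjusted p 0.0577) and in replicates 1 and 2 alone (0.998). The Acsl3 call was lost in those settings too (0.296 and 0.756), and in replicates 3 and 4 alone (0.27). It was also lost with arrays centred (0.0546), trended variance (0.0573), array weights (0.05003) and a block of the replicate sets (0.0504). Exact permutation tests over all probe sets called 0 genes, since 4 against 4 livers allow no p below 0.0286. Even Hsd17b4 had an adjusted p of 0.414 there, as did Hsd17b11 and Acsl3, so that setting says nothing on either call. With 4 livers per genotype, adjusted p-values near 0.05 turned on single arrays.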

Other observations

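Some values followed the replicate numbers rather than the genotypes. Abhd5 read 7.36 and 7.62 in knockouts 1 and 2 and 6.77 and 6.91 in knockouts 3 and 4, and the wild type livers parted likewise, at 7.64 and 7.58 in wild types 1 and 2 and 7.11 and 7.26 in wild types 3 and 4. Ldah, a lipid droplet hydrolase, ran the other way, at 5.69 and 5.60 in knockouts 1 and 2, 7.41 and 7.48 in knockouts 3 and 4, 6.22 and 5.63 in wild types 1 and 2, and 6.97 and 7.29 in wild types 3 and 4. The difference between the genotypes in Ldah was 0.01 ± 0.50 (SE, limma adjusted p 0.996). No label says what the numbers stand for, and the cause was not tested. Both genes were picked after their values were seen.

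Pnpla3, a lipase relative that remodels droplet lipids, had a lower mean in the knockout, from 4.89 to 5.51 against 5.29 to 5.87 in wild type livers (difference -0.43 ± 0.16 (SE), limma adjusted p 0.326). Lpin1, a phosphatidate phosphatase and co-regulator of PPARalpha, ran from 5.68 to 7.70 in knockout and from 4.52 to 6.31 in wild type livers, with knockout 3 the highest (difference 1.06 ± 0.45, adjusted p 0.394). Both were picked with their values known.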
